A study of Mus musculus with 12 samples.

Results

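Genomic imprinting silences a gene on the chromosome inherited from one parent, so that its RNA comes from the maternal or the paternal copy alone. The silent state is anchored by a differentially methylated region, a stretch of CpG-rich DNA that carries DNA methylation on the copy from one parent only, and imprinted genes lie in clusters that share such a region. Several of them control the growth of the fetus and placenta, and PROSER1 binds TET enzymes, which convert methylated cytosine to oxidised forms. The level of 44 imprinted genes outside the Dlk1-Dio3 cluster was examined here. They were taken by symbol from the 35976 genes of the table, lie in 22 clusters or single loci, and comprised 16 maternally expressed genes, 26 paternally expressed genes and 2 genes, Gnas and Inpp5f, whose parental copy depends on the transcript. For some genes the origin holds in certain tissues. Ube3a is imprinted in neurons and biallelic elsewhere, Commd1, Blcap and Trappc9 have a maternal bias in brain, and Copg2 depends on the tissue. Ascl2, Cd81 and Gab1 are listed for the placenta. The maternal and paternal classes are thus not sets of genes shown to have a silent copy in these cells. The reads were not assigned to alleles, so each value is the total level of a gene and does not tell from which parental copy the RNA came.

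The libraries were made from mouse embryonic stem cells (mESCs) and from the same lines after 48 h in N2B27, a serum-free medium that lets mESCs leave pluripotency towards neural fates (day 2). At each stage the groups were PROSER1 KO+Rescue, PROSER1 KO and WT, with 2 libraries in each of the 6 groups, named A and B after the columns of the table. All lines came from blastocysts that carried floxed Tet2 alleles, and mESCs were kept without feeder cells in serum, LIF and inhibitors of MEK and GSK3. The KO line was a single-cell CRISPR clone with a guide to exon 1 of Proser1, and the KO+Rescue line was a clone of it that carried FLAG-tagged Proser1 on a PiggyBac transposon, so a difference between lines cannot be told apart from a difference between clones. The columns do not spell out the genotype, and a code number in them was read as KO, and as KO+Rescue where an R followed it. The labels name the 2 libraries of each group biological replicates, and each group is 1 line, so p-values measure the spread between 2 replicates of a line.

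The libraries held 38634668 to 66450803 reads in genes. Proser1 had normalised counts of 2994 to 3041 in KO+Rescue, 872 to 1067 in KO and 685 to 829 in WT cells at day 2, and of 2828 to 3090, 502 to 576 and 550 to 889 in KO+Rescue, KO and WT mESCs. Proser1 was higher in the KO+Rescue line than in the KO line at both stages, while the RNA level in KO cells did not pass the test against WT cells and so does not check the KO label. The stage labels were checked on 8 pluripotency markers, which summed to 52647 to 91417 normalised counts in the libraries of day 2 and to 162681 to 223642 in those of mESCs, and on 6 early neural markers, which summed to 2167 to 4476 at day 2 and to 287 to 379 in mESCs. A normalised count is the read count of a gene divided by the size factor of its library.

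Of the 44 genes, 39 had a mean normalised count of at least 10 and were tested, and these were 15 maternally expressed, 22 paternally expressed and both genes of mixed origin. Per kilobase of the longest annotated transcript, the group means of Phlda2 ran from 1053 in KO mESCs to 3942 in WT cells at day 2, and those of Cd81, which encodes a tetraspanin, from 1568 in KO+Rescue cells at day 2 to 3014 in KO mESCs. Each was the highest of the list in some groups, and Mcts2 was in KO+Rescue mESCs (2607 per kilobase), among the 43 genes with a transcript length, which Zrsr1 lacked. The 5 genes below the limit had low counts in most or all libraries. Snurf, which shares a transcript with Snrpn, was at 0 in all 12 libraries. Airn, the paternal antisense RNA that silences Igf2r, had at most 2.24 normalised counts in a library, Kcnq1 at most 5.07, and Rasgrf1, a guanine nucleotide exchange factor, at most 8.45. Snrpn, which encodes a splicing protein, had 13.3 and 14.2 normalised counts in KO cells against 2.42 and 7.25 in WT cells at day 2, and 7.84 and 2.70 in KO mESCs against 29.6 and 22.4 in WT mESCs. Snurf overlaps Snrpn and Airn overlaps Igf2r, and how shared reads and strand were treated in the counting is not given in the sources used here, so a count at or near 0 does not show that the RNA was absent.

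The question of the main comparison was which imprinted genes change when PROSER1 is lost. At day 2, H19 and Nespas were higher in KO than in WT cells, and Grb10, Phlda2, Cdkn1c, Peg10, Nnat and Sfmbt2 were lower. In mESCs, H19, Sgce, Nespas, Zrsr1 and Impact were higher in KO, and Grb10, Usp29, Phlda2, Inpp5f, Nnat, Gnas, Cdkn1c, Ndn and Slc38a4 were lower. At day 2, 2 of 39 tested genes were higher (5.13%, against 1.57% of all 15341 genes tested) and 6 were lower (15.4%, against 3.64%). In mESCs, 5 were higher (12.8%, against 3.23% of all genes) and 9 were lower (23.1%, against 6.26%). The call was a Benjamini-Hochberg adjusted p under 0.05 in limma on log2(normalised count + 1). Where libraries of a called gene are said below not to overlap, that describes its values and is no support beyond the call. The share of all genes with such a gap between 2 and 2 libraries was not counted. The median log2 change of the tested imprinted genes was -0.01 at day 2 and 0.08 in mESCs, against 0.02 and -0.04 over all genes tested, so calls went both ways and the middle of the list lay near 0. When libraries were scaled to equal totals instead, the median of all genes in mESCs moved to -0.25, and 2 imprinted genes were called higher and 10 lower there. Over all genes, 235 were then called higher and 1371 lower. The counts that follow stand without the numbers of all genes called with the same library left out. Leaving out a KO library lowered the number called at day 2 to 4, for replicate A as for replicate B, and in mESCs 6 were called when replicate A of KO was left out, 5 when its replicate B was and 8 when WT replicate A was.

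**Figure D1:**
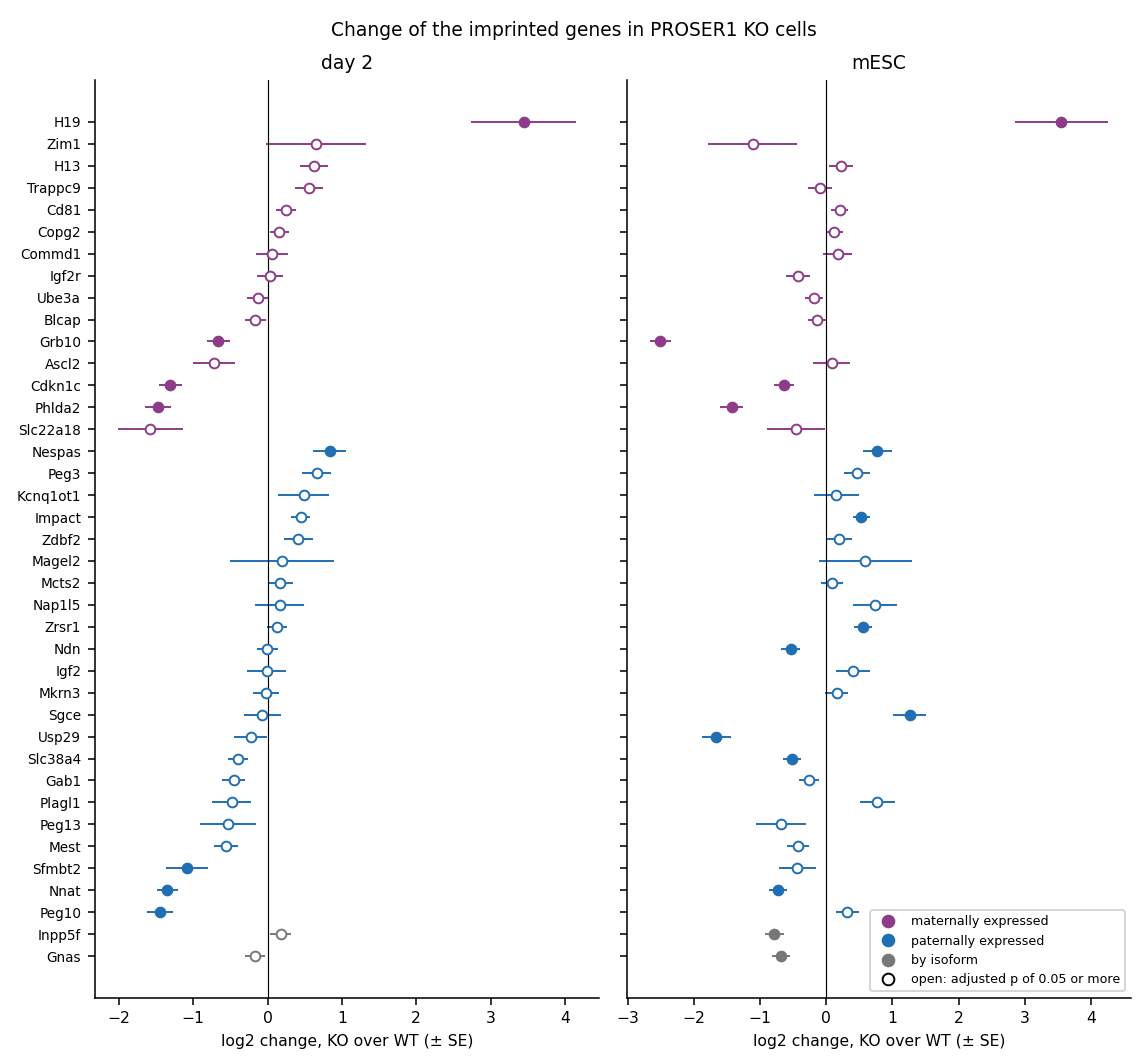
Log2 change in KO over WT cells of the 39 tested imprinted genes, at day 2 (left) and in mESCs (right), as points with the standard error, grouped by parental origin and ordered by the change at day 2. Filled points passed the test, and the H19 point at 3.44 at day 2 and 3.55 in mESCs stands far to the right of the others, while Grb10 at -2.51 in mESCs stands furthest to the left.

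Maternally expressed genes were called in both directions. At day 2, 1 of 15 was higher (6.67%) and 3 were lower (20%) in KO, with a median log2 change of 0.04. In mESCs the same counts held with a median of -0.14. Of 22 paternally expressed genes, 1 was higher (4.55%) and 3 were lower (13.6%) at day 2 (median -0.02). In mESCs 4 were higher and 4 lower (18.2% each, median 0.17). Over all genes tested, 1.57% were higher and 3.64% lower at day 2 (median 0.02), and 3.23% and 6.26% in mESCs (median -0.04). Counts this small do not tell the classes apart. Of 16 genes called at either stage, 6 were called at both: H19 and Nespas were higher in KO each time, and Grb10, Phlda2, Cdkn1c and Nnat lower. How many of all genes were called at both stages was not counted, so nothing particular to the list is read from this number.

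Grb10 encodes an adaptor protein that restrains signalling by the insulin and IGF receptors, and it is maternally expressed in most tissues. The gene lies at chr11:11930499-12037428 (mm10). At day 2, Grb10 had 3167 and 3515 normalised counts in KO libraries, against 6002 and 4629.9 in WT libraries. In mESCs it had 615 and 544 in KO libraries, against 3792 and 2858 in WT libraries. The KO and WT libraries did not overlap at either stage, and the gap was wider in mESCs. The log2 change was -0.66 ± 0.16 at day 2 (SE, n = 2 libraries each, limma adjusted p = 0.0313) and -2.51 ± 0.16 in mESCs (limma adjusted p = 1.65e-06). The KO change at day 2 differed from that in mESCs by 1.85 ± 0.23 on the log2 scale (limma adjusted p = 0.00186), a difference that passed in all 16 alternatives. The mESC change passed in all 13 alternatives, while the day 2 change did not pass without replicate A (limma adjusted p = 0.231) or B (0.128) of KO, or without WT replicate A (0.18). For distances to other genes, here and below, the start is the lowest coordinate of a gene, whichever its strand. The 5 other tested genes within 250 kb of Grb10 by this measure were Ikzf1, Fignl1, Ddc, 1700042O10Rik and LOC102631979. They had log2 changes in KO over WT of -1.42 to -0.40 at day 2 and of -0.90 to 0.09 in mESCs. None passed limma, with 3 of them at an unadjusted p under 0.05 at day 2.

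In KO+Rescue mESCs, Grb10 had 268 and 287 normalised counts, below both KO libraries. KO+Rescue lay 1.06 ± 0.16 below KO (log2, limma adjusted p = 0.00789) and 3.57 ± 0.16 below WT (limma adjusted p = 2.71e-08), the largest change of the list in that contrast. At day 2, KO+Rescue cells had 2771 and 2761 normalised counts, with a log2 change of -0.27 ± 0.16 against KO that did not pass (limma adjusted p = 0.42) and of -0.93 ± 0.16 against WT that did (limma adjusted p = 0.00338). The mESC difference from KO did not pass without KO+Rescue replicate B (limma adjusted p = 0.0536) or without KO replicate A (0.0844).

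Of the 6 genes called in KO at both stages, Grb10, Phlda2 and Nnat had a promoter in the RefSeq table used (GRCm38.p6, the same build as mm10), and the DNA before their start is shown to give the CpG density on which methylation can act. Each stretch is the 250 bases before the annotated start of a transcript, 5′ to 3′ on the strand of the gene, with CpG dinucleotides in capitals. That of Grb10 is chr11:12037421-12037670 on the minus strand and holds 40 CpGs, that of Phlda2 is chr7:143502525-143502774 on the minus strand with 21, and that of Nnat is chr2:157559828-157560077 on the plus strand with 12. Transcripts of a gene can start at several places. Grb10 had another annotated start, and the stretch shown is that of the start richer in CpGs. The promoter window (described below) of the other start, chr11:12027922-12028221, held 9 CpGs, against 45 in the window of the start shown. The density printed for Grb10 thus holds for the start shown and not for the other. The stretch of Phlda2 lies wholly inside the annotated span of the gene given below. Of the stretch of Grb10, 8 bases lie inside its span.

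Grb10: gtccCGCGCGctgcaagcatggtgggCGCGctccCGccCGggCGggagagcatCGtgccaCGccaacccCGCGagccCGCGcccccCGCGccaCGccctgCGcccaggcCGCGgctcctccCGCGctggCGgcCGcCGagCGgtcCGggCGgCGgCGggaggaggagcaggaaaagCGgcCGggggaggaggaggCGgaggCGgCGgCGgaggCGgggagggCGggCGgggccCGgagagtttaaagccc

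Phlda2: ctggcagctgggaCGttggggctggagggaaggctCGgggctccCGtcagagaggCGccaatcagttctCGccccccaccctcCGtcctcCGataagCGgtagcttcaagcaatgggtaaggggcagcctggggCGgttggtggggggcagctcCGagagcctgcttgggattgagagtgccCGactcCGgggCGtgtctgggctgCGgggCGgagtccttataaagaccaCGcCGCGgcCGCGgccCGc

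Nnat: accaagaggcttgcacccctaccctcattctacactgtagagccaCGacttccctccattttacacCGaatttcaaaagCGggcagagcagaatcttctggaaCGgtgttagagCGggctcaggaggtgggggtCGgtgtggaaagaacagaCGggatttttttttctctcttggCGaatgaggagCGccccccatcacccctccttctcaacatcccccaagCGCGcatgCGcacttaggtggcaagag

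A promoter window of 300 bases, with 250 before and 50 after the start, was at hand for 35 of the 44 genes, as 53 windows. The median number of CpGs was 17 in these and 7 over all 32851 windows of the annotation. The hexamer TGCCGC, which the imprint-protecting protein ZFP57 binds when it is methylated, was searched on both strands (as TGCCGC or GCGGCA). Counting windows that overlap on a strand once, it occurred in 12 of 49 windows of imprinted genes (24.5%) and in 11.4% of 30746 windows of all genes. The hexamer itself holds a CpG, and 49.0% of these windows of imprinted genes had 17 or more CpGs, against 31.0% of all. The shares were not matched for the number of CpGs, so no enrichment of the hexamer beyond it is read from them. Windows of Grb10, Nnat, Plagl1, Mcts2, Zrsr1's host Commd1 and Zim1 were among those that held it, and the window of Phlda2 did not. No methylation or binding was measured in these libraries.

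The Kcnq1 cluster of distal chromosome 7 is silenced on the paternal copy by the long noncoding RNA Kcnq1ot1. Its maternally expressed genes Phlda2 and Cdkn1c were lower in KO than in WT cells at both stages, and those at its other end were not called. Phlda2, which restrains growth of the placenta and lies at chr7:143501545-143503145, had 1366 and 1086 normalised counts in KO cells against 3064 and 3723 in WT cells at day 2. In mESCs, Phlda2 had 921 and 893 in KO libraries against 2169 and 2747 in WT libraries. All 4 KO values lay below all 4 WT values. Phlda2 had a log2 change of -1.47 ± 0.18 at day 2 (limma adjusted p = 0.000294) and -1.43 ± 0.18 in mESCs (limma adjusted p = 0.000433), and both passed in all 13 alternatives.

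Cdkn1c encodes the cyclin-dependent kinase inhibitor p57, which stops the cell cycle, and lies at chr7:143458339-143461059. It had 1567 and 1398 normalised counts in KO cells against 4105 and 3263 in WT cells at day 2, and 338 and 308 in KO mESCs against 525 and 479 in WT mESCs. The libraries did not overlap at either stage. Cdkn1c had a log2 change of -1.31 ± 0.15 at day 2 (limma adjusted p = 0.000282), which passed in all 13 alternatives, and -0.64 ± 0.15 in mESCs (limma adjusted p = 0.0232). The mESC call was lost without replicate A (limma adjusted p = 0.0676) or B (0.182) of KO and without WT replicate A (0.134).

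Slc22a18, a membrane transporter gene that starts between Cdkn1c and Phlda2, had 19.2 and 18.7 normalised counts in KO cells against 42.4 and 80.4 in WT cells at day 2. Its log2 change of -1.57 ± 0.44 did not pass limma (adjusted p = 0.0574) and passed edgeR's quasi-likelihood test on the recovered reads (adjusted p = 0.0335). Kcnq1ot1 itself had 56.9 and 64.3 normalised counts in KO cells against 50.8 and 36.2 in WT cells at day 2, with a log2 change of 0.49 ± 0.34 that did not pass (limma adjusted p = 0.49). Cd81 and Ascl2, a transcription factor of trophoblast progenitors, lie at the other end of the cluster, and their log2 changes of 0.24 ± 0.13 and -0.72 ± 0.28 at day 2 did not pass (limma adjusted p = 0.36 and 0.18). The 7 other tested genes that start within 250 kb of a listed gene of this cluster were taken by position, whether imprinted or not. Among them, Tspan32, R74862 and Tssc4 start between Ascl2 and Kcnq1ot1. The 7 had log2 changes in KO over WT of 0.00 to 0.60 at day 2 and of -1.15 to 0.89 in mESCs. None passed limma, with 4 of them at an unadjusted p under 0.05 in mESCs.

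**Figure D2:**
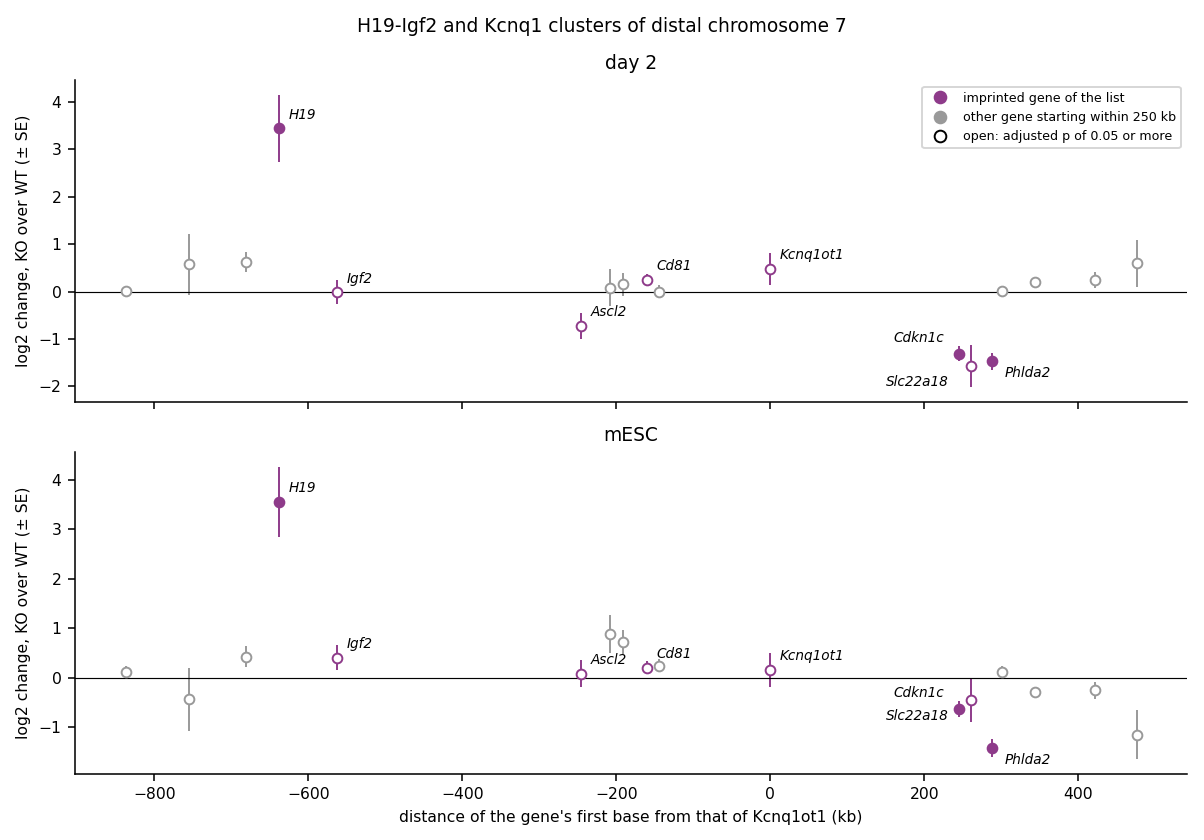
Log2 change in KO over WT cells, with the standard error, of the tested genes of the H19-Igf2 and Kcnq1 clusters and of other genes that start within 250 kb, placed by the distance of their lowest coordinate from that of Kcnq1ot1 in kb, at day 2 (top) and in mESCs (bottom). H19 at the left lies at 3.44 at day 2, and Cdkn1c (-1.31) and Phlda2 (-1.47) at the right lie below 0 with filled points, while the grey neighbours carry open points.

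KO+Rescue cells differed between these genes. In mESCs, Phlda2 had 1919.8 and 2445 normalised counts in KO+Rescue libraries, which overlapped the WT range and was 1.26 ± 0.18 above KO on the log2 scale (limma adjusted p = 0.00549). That call was lost without KO+Rescue replicate B (limma adjusted p = 0.0543) and without replicate A (0.0529) or B (0.0517) of KO. At day 2, Phlda2 had 1604 and 1945 normalised counts in KO+Rescue cells, above both KO and below both WT libraries. Limma did not call its difference from KO at day 2, so that gap describes the values alone. Phlda2 was 0.93 ± 0.18 below WT (log2, limma adjusted p = 0.00574). This call was lost without KO+Rescue replicate A, where the log2 change was -0.80. Cdkn1c had 2056 and 1658 normalised counts in KO+Rescue cells at day 2, which was 0.99 ± 0.15 below WT (log2, limma adjusted p = 0.00181) and passed in all 13 alternatives. Against KO, the log2 change of Cdkn1c was 0.32 ± 0.15 at day 2 and -0.09 ± 0.15 in mESCs, and neither passed (limma adjusted p = 0.31 and 0.83).

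H19 and Igf2 share enhancers and a differentially methylated region, with the noncoding RNA H19 made from the maternal and the growth factor Igf2 from the paternal copy. H19 was higher in KO, while Igf2 did not pass the test. At chr7:142575530-142578146, H19 had 177 and 176 normalised counts in KO cells against 16.9 and 13.8 in WT cells at day 2. In mESCs it had 56.0 and 85.0 in KO libraries against 16.6 and 1.02 in WT libraries, the lowest of which was 1 read. KO+Rescue cells had 41.1 and 31.9 at day 2 and 17.8 and 16.0 in mESCs. KO libraries were the highest at each stage, and KO+Rescue libraries lay between KO and WT at day 2. The log2 change in KO over WT was 3.44 ± 0.71 at day 2 (limma adjusted p = 0.0131) and 3.55 ± 0.71 in mESCs (limma adjusted p = 0.00886). The call was lost at day 2 without replicate A (limma adjusted p = 0.103) or B (0.111) of KO, and in mESCs without KO replicate B (0.0828). The mESC change rests on the WT libraries, with a log2 change of 5.12 without WT replicate A and 1.99 without WT replicate B. Against KO, the log2 change of H19 in KO+Rescue was -2.25 ± 0.71 at day 2, which did not pass limma (adjusted p = 0.13) and passed edgeR (adjusted p = 0.0159) and DESeq2 (adjusted p = 2e-05). Igf2 had 284 and 249.9 normalised counts in KO cells against 326 and 222 in WT cells at day 2, and its log2 changes were -0.01 ± 0.26 at day 2 and 0.40 ± 0.26 in mESCs.

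H19 and several other imprinted genes are abundant in mesoderm, fibroblasts and placenta. Summed over 7 fibroblast and feeder markers, normalised counts were 718 to 746 in KO+Rescue, 1452 to 1613 in KO and 1109 to 1224 in WT cells at day 2, and 100 to 140, 140 to 166 and 354 to 409 in KO+Rescue, KO and WT mESCs. Thy1 gave most of these sums at both stages, with Dcn next at day 2. Col1a1 and Col1a2 were above 0 in every library, and Lum and Postn had at most 2.17 normalised counts. Of the 4 fibroblast markers tested none was called by limma in KO against WT cells at day 2, and Thy1 was lower in KO mESCs, by a log2 change of -1.56. Summed over 7 trophoblast markers, they were 333 to 422 in KO+Rescue, 660 to 737 in KO and 504 to 520 in WT cells at day 2, with Elf5 at 0 in every KO+Rescue and KO library, and 3058 to 3087, 3209 to 3337 and 2885 to 3126 in KO+Rescue, KO and WT mESCs. Of the 5 trophoblast markers tested, Eomes was higher in KO than in WT cells at day 2 (log2 change 1.82) and Tfap2c lower (-0.77). Summed over 6 mesendoderm markers, of which Eomes is also 1, normalised counts were 105 to 131 in KO+Rescue, 448 to 477 in KO and 164 to 218 in WT cells at day 2, and 864 to 920, 772 to 863 and 1534 to 1535 in KO+Rescue, KO and WT mESCs. Of the 5 mesendoderm markers tested, T (1.30) and Eomes were higher in KO than in WT cells at day 2, and T was lower in KO mESCs (-1.64). At day 2 KO+Rescue cells had less T (-1.84) and Eomes (-2.31) than KO cells. The part of these cell types in the levels of imprinted genes was not tested, and in bulk RNA fewer cells of a type and less RNA per cell cannot be told apart.

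Other markers differed between the lines as well. Of the pluripotency markers, all 8 tested, Nanog was higher (log2 change 1.30) and Esrrb lower (-1.54) in KO than in WT cells at day 2. Of 4 early neural markers tested, Sox1 (1.83) and Pax6 (1.48) were higher in KO at day 2 and Sox1 in KO mESCs (1.69). Of 4 primitive endoderm markers tested, Gata4 was higher in KO at day 2 (1.71) and Dab2 in KO mESCs (1.4). Against KO, KO+Rescue was lower in Nanog (-1.52) and Thy1 (-1.07) at day 2 and in Dab2 (-1.80) in mESCs. Against WT, KO+Rescue cells at day 2 were higher in Sox1 (2.12) and Gata4 (1.35) and lower in Esrrb (-1.60), Tfap2c (-1.62) and Col1a1 (-2.30), and KO+Rescue mESCs were higher in Sox1 (1.72) and Zfp42 (0.68) and lower in T (-2.57), Cdx2 (-1.28) and Thy1 (-1.87).

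**Figure D3:**
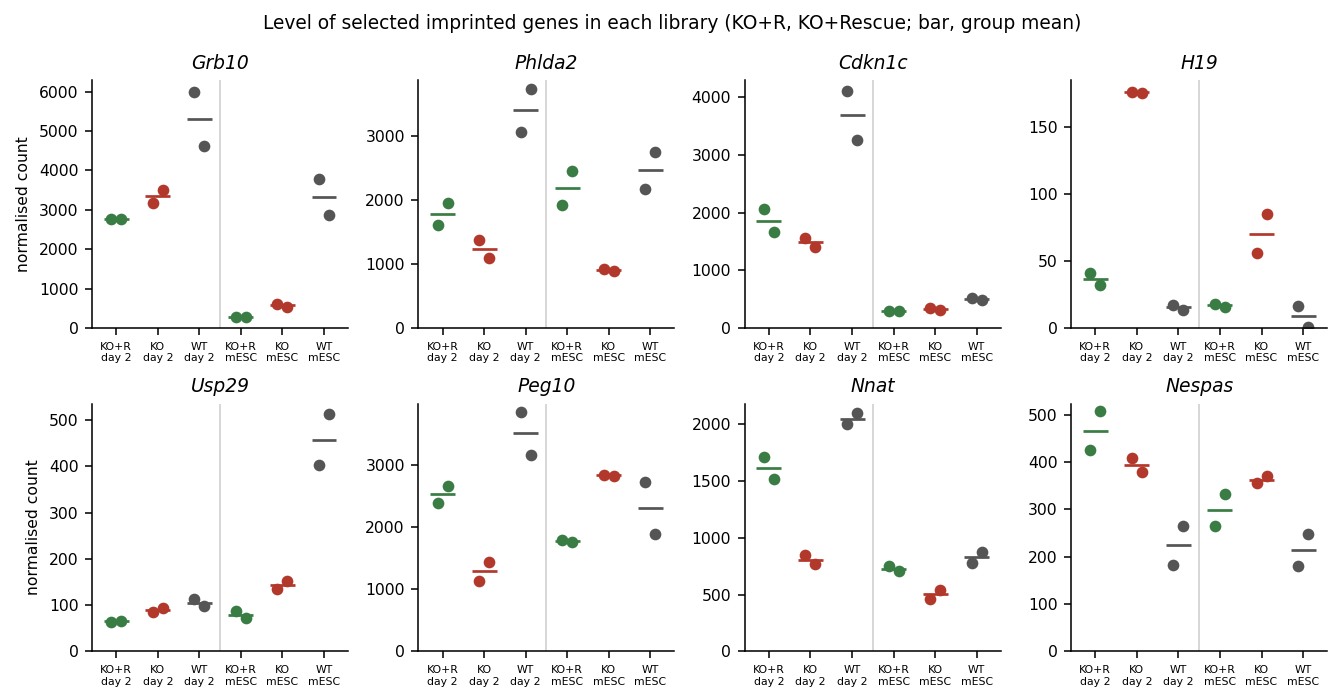
Normalised counts of 8 imprinted genes in each of the 12 libraries (points) with the group mean (bar), for KO+Rescue, KO and WT at day 2 and then in mESCs. H19 is at 177 and 176 in KO cells at day 2 and below 42 in KO+Rescue and WT cells, Grb10 is below 620 in KO+Rescue and KO mESCs, and Nnat in KO+Rescue cells lies between KO and WT at day 2.

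Peg10 and Sgce are adjacent paternally expressed genes that run in opposite directions from a shared promoter region on chromosome 6. Peg10 was lower in KO cells at day 2, and Sgce was higher in KO mESCs. Peg10, a gene derived from a retrotransposon that the placenta needs, lies at chr6:4747306-4760517. It had 1138 and 1439 normalised counts in KO cells against 3858 and 3171 in WT cells at day 2, and 2848 and 2835 in KO mESCs against 2735 and 1897 in WT mESCs. KO cells lay below WT cells at day 2, and in mESCs both KO libraries lay above both WT libraries. The log2 change was -1.45 ± 0.17 at day 2 (limma adjusted p = 0.000297), which passed in all 13 alternatives, and 0.32 ± 0.17 in mESCs, which did not pass (limma adjusted p = 0.23). The KO change differed between the stages by -1.77 ± 0.24 (log2, limma adjusted p = 0.00333), and this passed in all 16 alternatives. Sgce, which encodes epsilon-sarcoglycan, had 132 and 179 normalised counts in KO mESCs against 54.5 and 74.3 in WT mESCs, a log2 change of 1.26 ± 0.24 (limma adjusted p = 0.00775) that was lost without KO replicate B (0.0967) and without WT replicate A (0.071). At day 2 Sgce had 229.7 and 209.5 normalised counts in KO cells against 199 and 267 in WT cells, and did not pass. The 3 other tested genes near this pair, Col1a2, Casd1 and Ppp1r9a, had log2 changes in KO over WT of 0.16 to 0.46 at day 2 and of -0.28 to 0.27 in mESCs and did not pass limma, with 1 of them at an unadjusted p under 0.05 at day 2.

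In KO+Rescue cells, Peg10 had 2398 and 2665 normalised counts at day 2, above both KO libraries by 0.98 ± 0.17 on the log2 scale (limma adjusted p = 0.0134) and below both WT libraries by a log2 change of -0.47 ± 0.17 that did not pass (limma adjusted p = 0.097). The call against KO was lost without KO+Rescue replicate A (limma adjusted p = 0.0898), KO+Rescue replicate B (0.147), replicates A (0.213) or B (0.0521) of KO.

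Peg3, a zinc finger gene, and Usp29 are paternally expressed and start on opposite strands with 163 bases between their annotated starts. This stretch, chr7:6730420-6730582 on the plus strand, is printed because Usp29 was called in mESCs and Peg3 was not. Capitals mark its 5 CpGs.

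Peg3-Usp29: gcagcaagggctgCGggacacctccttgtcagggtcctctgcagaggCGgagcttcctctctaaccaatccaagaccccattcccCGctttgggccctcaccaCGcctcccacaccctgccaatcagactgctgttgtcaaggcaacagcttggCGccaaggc

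Usp29, a ubiquitin-specific protease gene, had 134 and 152 normalised counts in KO mESCs against 402 and 513 in WT mESCs. In KO+Rescue mESCs it had 86.8 and 71.2, the lowest of the 3 lines. Usp29 had log2 changes of -1.66 ± 0.22 in KO over WT (limma adjusted p = 0.000723) and -2.51 ± 0.22 in KO+Rescue over WT (limma adjusted p = 4.27e-05), and both passed in all 13 alternatives. At day 2 Usp29 had 84.9 and 93.5 normalised counts in KO cells against 113 and 97.1 in WT cells, and did not pass (log2 change -0.23 ± 0.22, limma adjusted p = 0.64). The KO change differed between the stages by 1.43 ± 0.31 (log2, limma adjusted p = 0.0477), a difference that was lost when any library other than WT day 2 replicate A was left out (0.062 to 0.213). Peg3 had 5452 and 4875 normalised counts in KO mESCs against 4412 and 3168 in WT mESCs, with a log2 change of 0.46 ± 0.20 that did not pass (limma adjusted p = 0.15). Peg3 was 1 of 4 tested imprinted genes that limma called in none of the 10 contrasts, beside Copg2, Mkrn3 and Trappc9, while DESeq2 called Peg3 higher in KO than in WT cells at day 2 (log2 change 0.64, adjusted p = 0.0363).

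Nnat, which encodes the membrane protein neuronatin, lies in an intron of Blcap at chr2:157560078-157562525. It had 847 and 766 normalised counts in KO cells against 1998 and 2099 in WT cells at day 2, and 465 and 539.6 in KO mESCs against 779 and 878 in WT mESCs. All KO values lay below the WT values of the same stage. The log2 change was -1.35 ± 0.14 at day 2 (limma adjusted p = 7.33e-05), the smallest adjusted p of the list in that contrast and past the threshold in all 13 alternatives, and -0.72 ± 0.14 in mESCs (limma adjusted p = 0.00656), lost without KO replicate A (0.0652). KO+Rescue cells had 1715 and 1519.9 normalised counts at day 2, which was 1.00 ± 0.14 above KO (log2, limma adjusted p = 0.00247) and not called against WT (log2 change -0.34 ± 0.14, limma adjusted p = 0.12). The call against KO was lost on leaving out either KO+Rescue replicate A (limma adjusted p = 0.0566) or KO replicate B (0.0588). Blcap, the host gene, which has a maternal bias in brain, had log2 changes in KO over WT of -0.16 ± 0.14 at day 2 and -0.14 ± 0.14 in mESCs. Neither passed.

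The Gnas locus makes a signalling G protein subunit from Gnas and, antisense to it on the paternal copy, the noncoding RNA Nespas. Gnas was lower in KO mESCs and Nespas was higher in KO at both stages. Nespas had 409 and 379 normalised counts in KO cells against 183 and 266 in WT cells at day 2, and 355 and 371 in KO mESCs against 181 and 247 in WT mESCs. Nespas had a log2 change of 0.83 ± 0.22 at day 2 (limma adjusted p = 0.0428) and 0.77 ± 0.22 in mESCs (limma adjusted p = 0.0422). Gnas had 3439.9 and 3379 normalised counts in KO mESCs against 6126 and 4865 in WT mESCs (log2 change -0.68 ± 0.13, limma adjusted p = 0.00877), and at day 2 9199 and 8401 in KO cells against 10745 and 9087 in WT cells, which did not pass. The pair overlaps, and the strand setting of the counting is not given in the sources used here, so reads of Gnas and Nespas may not be fully separated. All 3 calls were lost when KO replicate A of the same stage was left out (limma adjusted p = 0.246 for Nespas at day 2, 0.119 for Nespas and 0.0526 for Gnas in mESCs), and likewise without KO replicate B (0.201, 0.222 and 0.0789) or WT replicate A (0.244, 0.289 and 0.0811). Among 6 other tested genes near the locus, Atp5e was higher (log2 change 1.01 ± 0.28, limma adjusted p = 0.0414) and Ctsz lower (-0.62 ± 0.15, 0.0232) in KO mESCs, and Gm30189 was higher in KO at day 2 (0.95 ± 0.20, 0.014).

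The remaining calls between KO and WT were of 6 genes. Sfmbt2, a Polycomb-related gene that is imprinted in placental lineages, had 270.4 and 382 normalised counts in KO cells against 889.8 and 519 in WT cells at day 2 (log2 change -1.08 ± 0.28, limma adjusted p = 0.0427). Inpp5f, a phosphoinositide phosphatase gene, had 160.2 and 159 in KO mESCs against 263 and 289 in WT mESCs (-0.78 ± 0.14, 0.00532), and its KO change differed between the stages by 0.96 ± 0.20 (limma adjusted p = 0.0406). Bag3, which starts within 250 kb of Inpp5f, was lower in KO mESCs as well (-1.03 ± 0.25, 0.0239). Of 4 further genes in mESCs, Ndn, a MAGE family gene, had 337 and 321 in KO against 435 and 524 in WT, and Slc38a4, an amino acid transporter gene, 5301 and 4549.8 in KO against 7543 and 6550.0 in WT. Zrsr1, which encodes a splicing factor and lies in an intron of Commd1, had 1014 and 973 in KO against 703 and 652 in WT, and Impact, a regulator of translation, 4319 and 4275 in KO against 2998 and 2941 in WT. The libraries of these 4 genes did not overlap, and their log2 changes were -0.54 ± 0.15, -0.52 ± 0.13, 0.55 ± 0.13 and 0.53 ± 0.13. Under equal library totals Zrsr1 and Impact were not called (limma adjusted p = 0.204 and 0.222). Without KO replicate B the adjusted p of these 4 genes in limma was 0.23, 0.274, 0.128 and 0.136, and without KO replicate A it was 0.109, 0.0586, 0.114 and 0.0978. Without WT replicate A, Slc38a4, Zrsr1 and Impact had 0.196, 0.0671 and 0.0831, and Ndn was lost without WT replicate B (0.0952). The call on Sfmbt2 was lost without replicate A (0.315) or B (0.0928) of KO or WT replicate A (0.247), and the stage difference of Inpp5f was lost on leaving out any of the 8 KO or WT libraries (0.0526 to 0.213).

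The genes around the listed imprinted ones were set beside them. These neighbours were taken by position, so imprinted genes that are not on the list can be among them. They are thus not a set free of imprinting. Of 81 tested genes outside the list that start within 250 kb of one of its genes, 1 was higher (1.23%) and 2 were lower (2.47%) in KO than in WT cells at each stage, with a median log2 change of 0.01 at day 2 and -0.06 in mESCs. The background over all genes tested was 1.57% higher and 3.64% lower at day 2, and 3.23% and 6.26% in mESCs. The genes that were lower at day 2, named after their values were seen, were Id1, near Mcts2 and H13, and Stx11, near Plagl1. Limma called no imprinted gene beside them in that contrast, while H13 was called higher by edgeR (log2 change 0.62, adjusted p = 0.0496) and DESeq2 (0.60, 0.0323). Between KO+Rescue and KO, limma called none of the neighbours at day 2, with 9 at an unadjusted p under 0.05, and 1 higher and 1 lower in mESCs.

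Re-expression of Proser1 was examined by comparing KO+Rescue with KO cells. At day 2, Plagl1, Nnat and Peg10 were higher in KO+Rescue, and in mESCs Phlda2 was higher and Grb10 lower. At day 2, 3 of 39 were higher, against 0.502% of all genes tested, and none was called lower by limma, against 1.33%. In that contrast 15 of the 39 had an unadjusted p under 0.05 in limma, against 2625 of all 15341 genes tested. EdgeR called 4 of the list higher and 1 lower, and DESeq2 called 5 higher and 3 lower. The numbers of all genes called by edgeR, by DESeq2 or with a library left out are not given here. Nothing particular to the list is read from such counts. In mESCs, 1 was higher, against 0.476% of all genes, and 1 lower, against 1.04%. All 3 calls at day 2 were of paternally expressed genes and both in mESCs of maternally expressed genes, and the list's median log2 change was 0.05 at day 2 and -0.16 in mESCs, against -0.02 and 0.03 over all genes tested. Of the 39 tested genes, 22 were paternally and 15 maternally expressed, and calls this few do not tell the classes apart. At day 2 the number called was 0 without KO+Rescue replicate A or KO replicate B and 1 without KO+Rescue replicate B or KO replicate A, and in mESCs it was 1 when KO replicate B was left out and 0 when KO+Rescue replicate B or KO replicate A was.

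Plagl1, a paternally expressed zinc finger gene that restrains growth, had 124 and 104 normalised counts in the KO+Rescue line against 34.0 and 46.4 in the KO line at day 2, with 64.2 and 48.5 in WT cells. KO+Rescue libraries were above both other lines. Plagl1 had a log2 change of 1.5 ± 0.26 over KO (limma adjusted p = 0.0134) and 1.02 ± 0.26 over WT (limma adjusted p = 0.029). The call over KO was lost on leaving out KO+Rescue replicate A (limma adjusted p = 0.14), KO+Rescue replicate B (0.0776), replicates A (0.192) or B (0.0588) of KO, and the call over WT without KO+Rescue replicate A (0.178), KO+Rescue replicate B (0.0982) or WT replicate B (0.0828).

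KO+Rescue and WT cells still differed at imprinted genes. At day 2, 4 of 39 were higher (10.3%, against 3.9% of all genes tested) and 7 were lower (17.9%, against 7.2%), and in mESCs 3 were higher (7.69%, against 9.15%) and 9 were lower (23.1%, against 9.04%). The share that was higher in mESCs was thus near the background. Under equal library totals the split in mESCs was 0 higher and 18 lower, with the median of all genes at -0.38. Over all genes, 670 were then called higher and 3884 lower. At day 2 the 5 maternally expressed genes called, Grb10, Cdkn1c, Phlda2, Slc22a18 and Ascl2, were all lower. Of the 5 paternally expressed genes Plagl1, Zdbf2, Nespas and Impact were higher and Sfmbt2 lower. All of the maternally expressed genes called but Grb10 lie in the Kcnq1 cluster, and calls this few do not tell the classes apart. The number called at day 2 was 5 without KO+Rescue replicate A and 6 without KO+Rescue replicate B, and in mESCs 4 without KO+Rescue replicate B and 7 without WT replicate A. These contrasts share their WT libraries with those of KO.

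At day 2, Impact had 6463 and 5549 normalised counts in KO+Rescue cells against 3500.0 and 3206 in WT cells (log2 change 0.84 ± 0.13, limma adjusted p = 0.00141), which passed in all 13 alternatives. Zdbf2, a zinc finger gene, had 5112 and 4093 in KO+Rescue against 2581 and 1789 in WT (1.09 ± 0.20, 0.00452). Nespas had 425 and 507 in KO+Rescue against 183 and 266 in WT (1.07 ± 0.22, 0.00921). Each of the 3 genes was higher in both KO+Rescue libraries than in both WT libraries. Ascl2 had 29.3 and 47.0 in KO+Rescue against 96.2 and 94.2 in WT (-1.33 ± 0.28, 0.00998), Sfmbt2 284 and 239.5 against 889.8 and 519 (-1.38 ± 0.28, 0.00924), and Slc22a18 16.4 and 23.5 against 42.4 and 80.4 (-1.52 ± 0.44, 0.0428). Without KO+Rescue replicate A the calls on Zdbf2 (limma adjusted p = 0.0659), Ascl2 (0.105), Slc22a18 (0.227) and Gnas (0.141) were lost. Without KO+Rescue replicate B those on Nespas (0.0985), Sfmbt2 (0.0905), Slc22a18 (0.114) and Gnas (0.149) were lost, without WT replicate A those on Nespas (0.0682), Sfmbt2 (0.0668) and Gnas (0.162), and without WT replicate B that on Slc22a18 (0.182). Gnas had 6898 and 6841 in KO+Rescue against 10745 and 9087 in WT (-0.52 ± 0.13, 0.0276). Of the 81 neighbours, 1 was higher (1.23%) and 7 were lower (8.64%) in this contrast. Those near a called gene were Gm30189 beside Gnas, which was higher (1.69 ± 0.20, 0.000221), and 1700042O10Rik beside Grb10, which was lower (-1.79 ± 0.50, 0.0394).

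In mESCs, the genes lower in KO+Rescue than in WT were Grb10, Usp29, Peg13, Sfmbt2, Gnas, Ndn, Cdkn1c, Inpp5f and Slc38a4, and those higher were Plagl1, Zrsr1 and Impact. Peg13, a paternally expressed noncoding RNA inside Trappc9, had 22 and 16.0 normalised counts in KO+Rescue mESCs against 64.0 and 48.8 in WT mESCs (log2 change -1.53 ± 0.38, limma adjusted p = 0.0207). Plagl1 had 808 and 766 in KO+Rescue mESCs against 501 and 285 in WT mESCs (1.06 ± 0.26, 0.0215), and Sfmbt2 280.2 and 244 against 704 and 427 (-1.07 ± 0.28, 0.0249). Gnas had 3234 and 3049 in KO+Rescue mESCs against 6126 and 4865 in WT mESCs (-0.80), Ndn 277 and 271 against 435 and 524 (-0.80), and Cdkn1c 302 and 303 against 525 and 479 (-0.73). Both libraries of KO+Rescue lay below both of WT for each of these 3 genes. Inpp5f had 177 and 175 in KO+Rescue mESCs against 263 and 289 in WT mESCs (-0.65), and Slc38a4 5378 and 4383 against 7543 and 6550.0 (-0.53). Zrsr1 had 1097 and 1038 in KO+Rescue mESCs against 703 and 652 in WT mESCs (0.66), and Impact 4766 and 4267 against 2998 and 2941 (0.60). Without KO+Rescue replicate B, 8 of the 12 calls were lost, among them Peg13 (limma adjusted p = 0.17), Plagl1 (0.137), Sfmbt2 (0.192), Slc38a4 (0.215), Inpp5f (0.0977), Cdkn1c (0.0875), Zrsr1 (0.0632) and Ndn (0.0565). Without WT replicate A, 6 were lost, namely Sfmbt2 (0.22), Slc38a4 (0.16), Peg13 (0.151), Cdkn1c (0.0868), Impact (0.0626) and Inpp5f (0.0502), and Plagl1 was lost without KO+Rescue replicate A (0.0581) or WT replicate B (0.08). Of the 81 neighbours, 9 were higher (11.1%) and 7 lower (8.64%), close to the background in both directions. Those in the clusters of called genes were, on the higher side, Atp5e near Gnas (log2 change 1.43) and B230208H11Rik near Plagl1 (1.19). On the lower side they were Peg12 in the Snrpn cluster (-0.92), Osbpl5 (-1.96) and Cars (-0.51) in the Kcnq1 cluster, Itih5 near Sfmbt2 (-2.49), Gm32885 near Slc38a4 (-1.4) and Osbpl1a near Impact (-0.41).

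Between day 2 and mESCs more genes of the list were called than between genotypes, and so were more of all genes. In WT cells 14 of 39 genes were higher and 9 lower at day 2, against 26.6% and 25.3% of all genes tested. In KO cells 14 were higher and 10 lower, against 31.4% and 28.7%, and in KO+Rescue cells 19 were higher and 10 lower, against 29.2% and 29.1%. These shares of the list, 35.9% to 48.7% higher and 23.1% to 25.6% lower, stand beside those of all genes, and nothing particular to the list is read from them. Under equal library totals the medians of all genes were 0.22 to 0.36 in the 3 genotypes, and the splits were 22 higher and 3 lower in KO+Rescue, 17 and 5 in KO and 14 and 4 in WT. Over all genes, the splits were then 6229 higher and 2485 lower in KO+Rescue, 6303 and 2513 in KO and 5026 and 2372 in WT.

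In all 3 genotypes, 11 genes were higher at day 2 and 7 were lower. The matching numbers over all genes were not counted, and nothing particular to the list is read from these. The 11 were Magel2, Cdkn1c, Inpp5f, Nap1l5, Igf2, Grb10, Ndn, Gnas, Nnat, Mest and Igf2r, and the 7 were Plagl1, Slc38a4, Zrsr1, Gab1, Blcap, Mcts2 and Cd81. Magel2, a MAGE family gene beside Ndn in the Snrpn cluster, had 134 and 145 normalised counts in KO+Rescue, 129 and 139.9 in KO and 117 and 117 in WT cells at day 2, against 11.5 and 3.56, 15.7 and 6.74, and 17.8 and 2.04 in the mESCs of the same lines. Magel2 had a log2 change of 4.21 in KO+Rescue, 3.57 in KO and 3.97 in WT. It rests on few mESC reads, and was 5.28 in WT without WT mESC replicate A and 2.65 without WT mESC replicate B, and 4.94 in KO+Rescue without KO+Rescue mESC replicate A and 3.49 without KO+Rescue mESC replicate B. Cdkn1c was higher by 2.61, 2.19 and 2.86 on the log2 scale in KO+Rescue, KO and WT, and Nap1l5, which encodes a nucleosome assembly protein, by 2.93, 1.80 and 2.37. Igf2 had 190.1 and 186 normalised counts in KO+Rescue, 284 and 249.9 in KO and 326 and 222 in WT cells at day 2, against 48.1 to 99.7 in all mESC libraries. Plagl1 fell most in each genotype, with log2 changes of -2.78, -3.99 and -2.74 in KO+Rescue, KO and WT.

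Some of these 18 genes lost a call when 1 library was left out. In WT, Igf2r, Mest and Mcts2 were lost without WT day 2 replicate A (limma adjusted p = 0.153, 0.0664 and 0.0953) or without WT mESC replicate B (0.18, 0.0688 and 0.0974), Zrsr1 without WT day 2 replicate A (0.106) or WT mESC replicate A (0.0534), and Cd81 without WT mESC replicate A (0.0665). In KO, Mest was lost without KO day 2 replicate A (0.0756), KO day 2 replicate B (0.0905) or KO mESC replicate B (0.169), Cd81 without KO day 2 replicate B (0.0997) or KO mESC replicate A (0.139), and Mcts2 on leaving out any of the 4 libraries (0.0666 to 0.0921). In KO+Rescue, Blcap was lost without KO+Rescue mESC replicate A (0.0643), Mcts2 without KO+Rescue mESC replicate B (0.0677), and Cd81 without KO+Rescue day 2 replicate B (0.0752) or KO+Rescue mESC replicate A (0.0751). Of the 7 genes that were lower, Plagl1 was the exception in passing in every genotype under equal library totals.

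Peg10 was the gene of the list called in all 3 genotypes whose direction between stages differed: it was lower at day 2 in KO cells (log2 change -1.15) and higher in KO+Rescue (0.51) and WT (0.62). The call in KO+Rescue was lost on leaving out any of its 4 libraries (limma adjusted p = 0.0508 to 0.133), and that in WT without WT day 2 replicate A (0.0691) or WT mESC replicate B (0.109). For the difference between KO and WT in the change between stages, 3 of 39 genes had a positive value, against 0.502% of all genes tested, and 1 a negative one, against 0.626%. These were Grb10, Usp29 and Inpp5f on the positive side and Peg10 on the negative side. Grb10 was higher at day 2 by 2.53 in KO and 0.68 in WT on the log2 scale, Usp29 was lower in both, with -0.68 in KO and -2.11 in WT, and Inpp5f was higher by 3.23 in KO and 2.27 in WT. Under equal library totals 1 difference was positive and 1 negative, with 38 positive and 61 negative over all genes. Leaving out KO day 2 replicate A or B, WT day 2 replicate B, KO mESC replicate A or B, or WT mESC replicate A left 2 differences called.

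**Figure D4:**
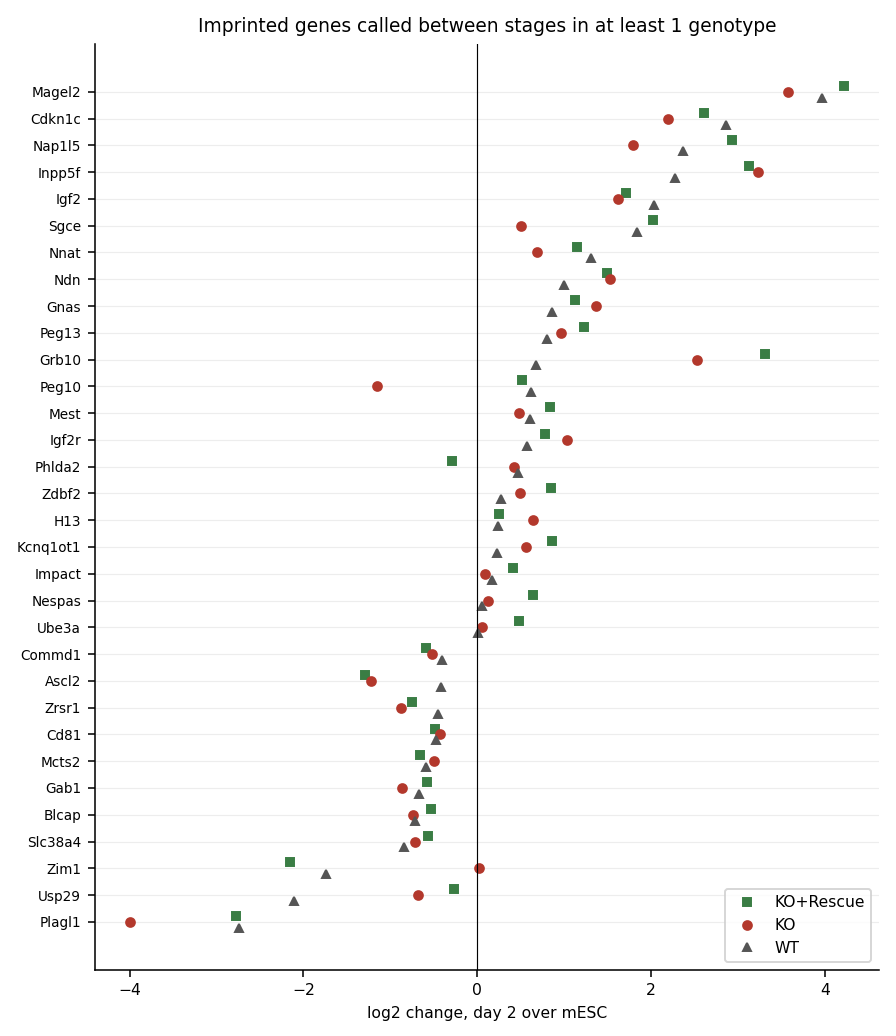
Log2 change from mESC to day 2 of the 32 imprinted genes called between stages in at least 1 genotype, with squares for KO+Rescue, circles for KO and triangles for WT, ordered by the change in WT. Peg10 in KO cells lies at -1.15 while its other symbols lie above 0, and Grb10 lies at 3.31 and 2.53 in KO+Rescue and KO cells but at 0.68 in WT cells.

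The machinery that maintains imprints was checked with a list of 14 genes linked to imprint maintenance, all of them tested. Its median log2 change in KO over WT was -0.03 at day 2 and -0.22 in mESCs. Dppa3, which shields the maternal genome from TET oxidation in the zygote, was lower in KO at day 2 and was the gene of the 14 called there. It had 262 and 326 normalised counts in KO cells against 1122 and 1509 in WT cells, a log2 change of -2.15 ± 0.21 (limma adjusted p = 6.75e-05). In KO+Rescue cells Dppa3 had 349.6 and 314 at day 2, a log2 change against WT of -1.97 (limma adjusted p = 0.000121). Zfp57, which recruits the silencing complex to imprinted regions, had log2 changes in KO over WT of 0.01 at day 2 and -0.13 in mESCs, and Trim28, the scaffold of that complex, of -0.03 and -0.52, and neither passed. Against WT, KO+Rescue mESCs were lower in Hells (-0.47) and Atrx (-0.54), chromatin remodellers, and higher in Zfp42 (0.68).

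Of 6 genes for TET enzymes and de novo methylation, Tet1 (0.82) and Tet2 (0.82) were higher and Dnmt3l (-1.09) lower in KO at day 2, and Dnmt3a (-0.66) and Dnmt3l (-0.51) were lower in KO mESCs, as log2 changes. Dnmt3l, the cofactor with which the methyltransferases set imprints in germ cells, had 2161 and 2079 normalised counts in KO cells against 4803 and 4240.1 in WT cells at day 2 (limma adjusted p = 0.000692). KO+Rescue cells had 2659 and 2608, a log2 change against WT of -0.78 (limma adjusted p = 0.00553). Tet2 was higher in KO+Rescue than in WT cells at day 2 (0.82), and Dnmt3a (-0.83) and Dnmt3l (-0.74) were lower in KO+Rescue than in WT mESCs.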

How the data were processed

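RNA libraries were made with a directional NEBNext Ultra II kit. The authors trimmed reads with Trimmomatic, aligned them with STAR to mm10, removed reads on the Y chromosome and counted read pairs per RefSeq gene with featureCounts. The deposited signal is the count of each gene divided by the DESeq2 size factor of its library; tool versions and the strand setting are not given in the sources used here. In all 12 libraries 100% of the values were whole multiples of the smallest value above 0 (tolerance 0.001 of a read), which gave back the read counts.

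The 44 genes and all gene lists were chosen with earlier results of these data known. Every gene of the 44 was accounted for: those called between genotypes with each library's value, up to 12 per contrast by size, and the others by counts or ranges. Genes of the lists were named where called between genotypes, and neighbours (other genes that start within 250 kb) where an imprinted gene of their cluster was called in the same contrast. Distances to neighbours ran between lowest coordinates, which are not the transcript starts of genes on the minus strand. Positions came from RefSeq GRCm38.p6, transcript lengths from GENCODE vM39.

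The main test was limma 3.58.1 (R 4.3.3, trend) on log2(normalised count + 1) for the 15341 genes with a mean of at least 10, with 6 group means fitted over all 12 libraries and Benjamini-Hochberg adjustment over all genes within each of 10 contrasts. Fold changes are on that scale, which understates changes of low genes. Alternatives were pseudocounts of 0.5 and 5, no filter, a minimum mean of 50, edgeR 4.0.16 and DESeq2 1.42.0 on the recovered reads, equal library totals, the groups of a contrast alone, a block for the replicate letter, and each library left out.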

Additional observations from a re-analysis of the deposited data

Results flagged for a closer look

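For 4 imprinted genes the change in KO over WT differed between the stages by a test of the difference itself in limma. On the log2 scale, the KO change at day 2 minus that in mESCs was 1.85 for Grb10 (limma adjusted p = 0.00186), -1.77 for Peg10 (0.00333), 1.43 for Usp29 (0.0477) and 0.96 for Inpp5f (0.0406). Groups of 2 libraries are too small to look for a library far from the others.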

How the results depend on the processing

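No log2 change of a gene called in a contrast reversed its sign in any alternative, and 224 of 1698 recomputed single-gene results fell below the threshold. The counts of imprinted genes in this section, and those given above with a library left out, stand without the number of all genes called in the same setting. They show how far a count moves with the setting, and nothing particular to the list is read from them. With limma restricted to the groups of the contrast, the number of imprinted genes called was 7 for KO against WT in mESCs, 4 for KO+Rescue against KO in mESCs and 20 at day 2, fits with few degrees of freedom. Without the filter, 5 were called for KO against WT at day 2 and 2 for the difference between stages, and under equal library totals 5 and 2. DESeq2 called 13 for KO against WT at day 2, and 5 in mESCs and 8 at day 2 for KO+Rescue against KO, where edgeR called 5 at day 2. Equal totals moved the median of all genes by 0.32 on the log2 scale for KO+Rescue against WT in mESCs and by 0.24 to 0.37 between stages, so a change of that size there depends on the scaling. For KO against WT, equal totals ended the calls on Zrsr1, Impact and Nespas (limma adjusted p = 0.0842) in mESCs. At day 2 they ended those on Grb10 (limma adjusted p = 0.0566), Nespas (0.0562) and Sfmbt2 (0.059).

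With 1 library left out, the number called ranged from 5 to 17 for KO against WT in mESCs and from 4 to 9 at day 2, from 0 to 2 and from 0 to 1 for KO+Rescue against KO, from 4 to 18 and from 5 to 12 for KO+Rescue against WT, and from 2 to 3 for the difference between stages. Between stages it ranged from 18 to 26 in WT, from 19 to 22 in KO and from 21 to 24 in KO+Rescue. The lone library of an arm was then assumed to vary like the other groups.

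The letters A and B are not stated to pair libraries, and the deviations of the A libraries from their group means correlated at -0.0481 to 0.413 over 15 pairs of groups, with 6 of them over 0.1. With a replicate block for the letter, 15 imprinted genes were called for KO against WT at day 2 and 18 in mESCs, and 11 at day 2 and 7 in mESCs for KO+Rescue against KO. Depth limits H19, Slc22a18, Zim1 and Magel2, which had few reads in some libraries.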
